A study of Mus musculus with 20 samples.

Results

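The BCL2 family decides at the mitochondrial outer membrane whether a cell under stress dies, and 10 of its genes are described here in mouse tenocytes given insulin-like growth factor 1 (IGF1). They are the BH3-only genes Bbc3, Bcl2l11, Bmf, Pmaip1 and Bid, the effectors Bax and Bak1, and the anti-apoptotic genes Bcl2, Bcl2l1 and Mcl1. The members were taken by gene name, each matched 1 row among the 29986 genes of the count table, and all 10 were among the 14420 genes that passed the filter on low counts. Tenocytes are the fibroblasts of tendon. Those used here were tail tendon cells of wild-type, adult C57Bl/6 mice, sampled at 0, 1, 2, 6 and 24 h of IGF1, with 4 RNA sequencing libraries per time. The 0 h cells received no cytokine, and the cells at 1, 2, 6 and 24 h had received recombinant IGF1 at 100 ng/mL. The question was how transcripts move with the length of the IGF1 treatment. Cells cultured for the same times without IGF1 are not part of the data used here. Each comparison with 0 h therefore also holds time in culture, and all 4 such comparisons share the same 0 h libraries.

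Effector proteins of this family, BAX and BAK, form pores in the outer mitochondrial membrane that release cytochrome c and start caspase activation. Anti-apoptotic members such as BCL-2, BCL-xL and MCL-1 hold the effectors and their activators in check, and BH3-only proteins act as stress sensors that bind the anti-apoptotic members or activate the effectors directly. IGF1 is a classic survival factor: its receptor activates PI3 kinase and AKT, which keeps FoxO transcription factors out of the nucleus, and Bbc3 (PUMA) and Bcl2l11 (BIM) are known targets of FoxO3. Much of the control of this family lies in protein stability, phosphorylation and location, which transcript counts do not show.

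Total counts per library ranged from 13734425 to 22687173, and mitochondrial genes held 1.31% to 1.75% of them. The 8 tenocyte markers, among them Scx, Mkx and Tnmd, were detected in all 20 libraries, with a summed level of 48598 to 79951 CPM (counts scaled by library size). Macrophage markers were also present and were higher at 2 h than at 0 h. The summed level of 13 of them was 249.3, 456, 149 and 163 CPM in 2 h replicates 1 to 4 and 90.3 to 113 CPM at 0 h, 12 of the 13 were called higher at 2 h, and none was at 0 in any library. Their sum was also 196 CPM in 1 h replicate 4 and 166 CPM in 6 h replicate 2. The summed level of 6 Schwann cell markers was 81.4 CPM in 2 h replicate 2 and 5.28 to 17.9 CPM in the other libraries. In bulk libraries, fewer cells of a type and less RNA per cell cannot be told apart. The labels do not say whether replicates came from separate mice or cultures, so p-values measure the spread between these libraries, which may be technical. CPM values are scaled by TMM, means are given ± SD with n = 4 libraries per time, fold changes are log2 ± SE, and p-values are Benjamini-Hochberg adjusted over all tested genes in edgeR's quasi-likelihood test, with a gene called under 0.05.

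Across the family, Bbc3 and Bmf were the members called at 1 h and had the largest fold changes, and Bax, Bcl2 and Mcl1 were called in none of the 7 comparisons. Over the 5 times together, 7 of the 10 members changed, against 63.7% of all tested genes. At 1 h, 2 members were lower (Bbc3 and Bmf) and 0 were higher, a background of 10.6% of genes called (6.75% higher and 3.88% lower). At 2 h, Pmaip1 and Bak1 were higher and Bbc3, Bmf, Bid and Bcl2l1 were lower, where 37.7% of all genes were called (20.2% higher and 17.5% lower). At 6 h, Bak1 was higher and Bbc3, Bmf, Bcl2l11 and Pmaip1 were lower, where 40.2% of all genes were called (20.6% higher and 19.6% lower). At 24 h, Bcl2l11, Pmaip1 and Bak1 were higher and Bcl2l1 was lower, where 26% of all genes were called (12.7% higher and 13.2% lower). The median log2 fold change of the 10 members was 0.02, −0.12, −0.10 and 0.11 at 1, 2, 6 and 24 h, beside medians of 0.0032, −0.0061, −0.0019 and 0.0015 over all genes. Among the 5 BH3-only genes alone the medians were −0.39, −0.41, −0.58 and 0.46.

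**Figure D1:**
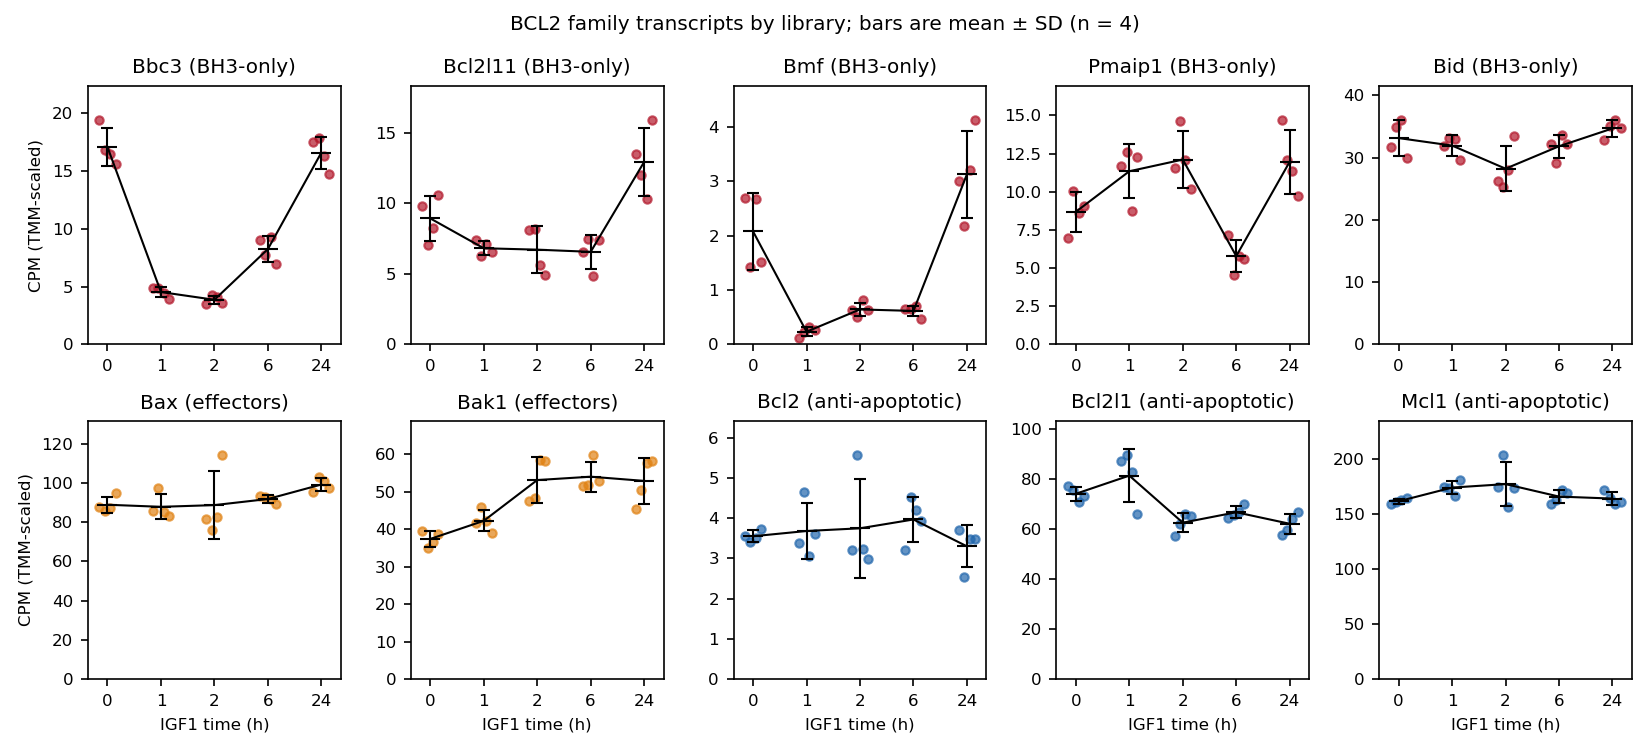
TMM-scaled CPM (y axis, from 0) of each of the 10 members in every library against IGF1 time (x axis, evenly spaced times in h); points are libraries, bars are mean ± SD (n = 4) and lines join the means. Bbc3 and Bmf dip at 1 to 6 h and are back at or above 15.6 and 1.42 CPM, their lowest 0 h values, in 3 and 4 of the 4 libraries at 24 h, while Mcl1 lies between 156 and 204 CPM throughout.

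Bbc3 encodes PUMA, a BH3-only protein that binds all the main anti-apoptotic members and is best known as a p53 target. Its gene (ENSMUSG00000002083) lies on chromosome 7, bases 16308393 to 16318205, plus strand, in the mm10 build. It had 19.5, 16.8, 16.4 and 15.6 CPM in the 0 h libraries, 4.87, 4.89, 4.40 and 3.92 CPM at 1 h, and 3.49, 4.23, 4.09 and 3.61 CPM at 2 h. At 6 h it had 9.02, 7.74, 9.30 and 6.93 CPM, and at 24 h 17.5, 17.9, 16.3 and 14.8 CPM. Every library at 1, 2 and 6 h was below every 0 h library, and the 24 h libraries overlapped those at 0 h; libraries did not overlap for 17.9%, 29.6% and 43.3% of all genes at 1, 2 and 6 h. Bbc3 thus fell to 26.5% of its 0 h level at 1 h (log2 −1.92 ± 0.12, adjusted p = 4.96e-12) and 22.6% at 2 h (−2.15 ± 0.12, adjusted p = 2.23e-13). At 6 h it was at 48.3% (−1.05 ± 0.12, adjusted p = 3.26e-08). The later steps were of similar size, with a rise of 2.14-fold at 6 h against 2 h (log2 1.10 ± 0.13, adjusted p = 2.74e-07) and 2.01-fold at 24 h against 6 h (1.01 ± 0.12, adjusted p = 9.71e-08). At 24 h the difference from 0 h was −0.04, with a 95% interval of −0.27 to 0.19 (adjusted p = 0.833). Among the 14420 tested genes Bbc3 ranked 66 by its any-time p-value (adjusted p = 5.47e-15).

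Bmf, whose protein is held at the cytoskeleton and released on detachment from matrix or on stress, had the largest fold change of the members. It was also one of the least abundant, so few reads stand behind each value. The 0 h libraries held 58, 28, 49 and 32 reads of it, those at 1 h 2, 4, 7 and 4 reads, and those at 2 h 13, 10, 14 and 11 reads. There were 13, 11, 13 and 9 reads at 6 h, and 43, 36, 56 and 64 reads at 24 h. The means in CPM were 2.08 ± 0.70, 0.231 ± 0.084, 0.641 ± 0.125, 0.613 ± 0.098 and 3.13 ± 0.80 at 0, 1, 2, 6 and 24 h. The libraries at 1, 2 and 6 h were all below those at 0 h, the 2 h libraries were all above the 1 h libraries (15.3% of all genes had no overlap in that step), and the 24 h libraries overlapped the range at 0 h. Bmf fell to 11.6% of its 0 h level at 1 h (−3.10 ± 0.36, adjusted p = 5.25e-07), 31.0% at 2 h (−1.69 ± 0.31, adjusted p = 0.0001035) and 29.8% at 6 h (−1.75 ± 0.31, adjusted p = 5.69e-05). Its rise between 1 and 2 h (1.41 ± 0.41, adjusted p = 0.0177) was called with all libraries but not without 1 h replicate 1, the library with 2 reads (1.22, adjusted p = 0.0631). It was 5.05-fold higher at 24 h than at 6 h (2.34 ± 0.31, adjusted p = 1.05e-06), and the 24 h value did not pass the test against 0 h (0.59, 95% interval 0.02 to 1.154, adjusted p = 0.119). The gene (ENSMUSG00000040093) lies on chromosome 2, bases 118528757 to 118549687, minus strand.

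Bcl2l11 encodes BIM, which binds every anti-apoptotic member and can activate BAX and BAK directly. It lies on chromosome 2, bases 128126038 to 128162547, plus strand (ENSMUSG00000027381). Its levels were 9.82, 7.06, 8.25 and 10.6 CPM at 0 h, 7.37, 6.28, 7.10 and 6.52 CPM at 1 h, and 8.08, 8.20, 5.64 and 4.93 CPM at 2 h. They were 6.56, 7.44, 4.84 and 7.40 CPM at 6 h and 13.5, 12.0, 10.3 and 15.9 CPM at 24 h. Each treated time overlapped 0 h in at least 1 library, and the 24 h libraries were all above those at 6 h. The log2 fold change was −0.39 ± 0.17 at 1 h (adjusted p = 0.166) and −0.41 ± 0.17 at 2 h (adjusted p = 0.0627), neither called. Bcl2l11 fell at 6 h (−0.45 ± 0.17, adjusted p = 0.0389) and was higher at 24 h (0.53 ± 0.17, adjusted p = 0.0190), both close to the threshold. The step between 6 and 24 h was larger, 1.97-fold (0.98 ± 0.17, adjusted p = 5.14e-05).

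Single libraries decided the calls of Bcl2l11 against 0 h. The 6 h call ended on leaving out 0 h replicate 1 (adjusted p = 0.106), 0 h replicate 4 (0.140), 6 h replicate 1 (0.0742) or 6 h replicate 3 (0.158). The 24 h call did not pass without 0 h replicate 2 (0.0800), 0 h replicate 3 (0.0543) or 24 h replicate 4 (0.0946). At 2 h a fall was called without 0 h replicate 2 (−0.51, adjusted p = 0.0301), 2 h replicate 1 (−0.51, 0.0337) or 2 h replicate 2 (−0.51, 0.0276), and with no count filter (−0.41, 0.0395). Without both 2 h libraries of the highest macrophage marker level, replicates 1 and 2, it was −0.76 (adjusted p = 0.00372). Those libraries held 8.08 and 8.20 CPM of Bcl2l11, the others 5.64 and 4.93 CPM, and the part of macrophage RNA in this gap was not tested.

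Bbc3, Bmf, Bcl2l11 and Pmaip1 were all lower at 6 h than at 0 h and all higher at 24 h than at 6 h. As FoxO factors are known regulators of this family, the windows around their annotated starts were searched for GTAAACA, a core FoxO-type site, or TGTTTAC on the other strand. Windows run from 250 bases before to 50 after each start (RefSeq, GRCm38.p6). Results are listed for 16 windows of the 9 members other than Pmaip1. Pmaip1 was left out of this listing, so the motif result says nothing about it. The motif was found in 1 of 3 windows of Bbc3, 1 of 2 of Bcl2l11 and 0 of 3 of Bmf, and in no window of the other 6 members; 3.65% of the 32851 windows of all genes hold it. The Bbc3 site (bases 16310094 to 16310100) starts 167 bases before that start, within an intron of a longer transcript in GENCODE M21. The Bcl2l11 site (bases 128125811 to 128125817) starts 227 bases before the start and outside the gene. Both stretches of 250 bases are shown because they carry the match, 5′ to 3′ on the plus strand, with the motif in capitals.
Bbc3 chr7:16310011-16310260: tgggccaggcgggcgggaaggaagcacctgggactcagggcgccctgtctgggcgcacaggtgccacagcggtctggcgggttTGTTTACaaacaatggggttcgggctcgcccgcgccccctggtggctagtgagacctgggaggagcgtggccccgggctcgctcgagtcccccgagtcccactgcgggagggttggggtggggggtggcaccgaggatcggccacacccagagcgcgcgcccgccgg
Bcl2l11 chr2:128125788-128126037: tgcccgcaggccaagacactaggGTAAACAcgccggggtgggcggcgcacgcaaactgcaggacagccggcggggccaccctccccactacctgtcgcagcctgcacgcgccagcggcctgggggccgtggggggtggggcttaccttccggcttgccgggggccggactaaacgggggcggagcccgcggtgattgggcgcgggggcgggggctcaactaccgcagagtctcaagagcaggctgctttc
The motif was chosen with the expression values known and other short motifs had also been looked at in these windows. A match describes the letters only, and binding was not measured here.

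Pmaip1 encodes NOXA, which binds mainly MCL-1, and it was not among the genes that fell at 1 and 2 h. Its levels were 6.95, 10.1, 8.63 and 9.09 CPM at 0 h, 11.7, 12.6, 8.75 and 12.3 CPM at 1 h, and 11.5, 14.6, 12.1 and 10.2 CPM at 2 h. They were 7.15, 4.54, 5.81 and 5.62 CPM at 6 h and 14.7, 12.1, 11.4 and 9.68 CPM at 24 h. All 2 h libraries were above all 0 h libraries and all 6 h libraries were below all 2 h libraries (24% of all genes had no overlap in that last step). The libraries at 1, 6 and 24 h overlapped those at 0 h. Pmaip1 was at 0.38 ± 0.15 at 1 h (adjusted p = 0.122), rose by 0.48 ± 0.15 at 2 h (adjusted p = 0.0138), and fell to 66.9% of its 0 h level at 6 h (−0.58 ± 0.16, adjusted p = 0.00464). It was higher again at 24 h (0.46 ± 0.15, adjusted p = 0.0270). Both later steps were more than 2-fold in size: 47.9% of the 2 h level at 6 h (−1.06 ± 0.16, adjusted p = 1.04e-05), then 2.06-fold at 24 h against 6 h (1.04 ± 0.16, adjusted p = 8.37e-06).

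The 2 rises of Pmaip1 over 0 h were close to the threshold, the fall at 6 h less so. Leaving out 0 h replicate 1 (0.39, adjusted p = 0.0641), 2 h replicate 2 (0.38, 0.0641) or both 2 h replicates 1 and 2 (0.35, 0.134) ended the 2 h call. The 24 h call ended when 0 h replicate 1 was left out (adjusted p = 0.101), likewise 0 h replicate 3 (0.0519), 24 h replicate 1 (0.119) or 24 h replicate 2 (0.0533). At 2 h the library with the most Pmaip1, replicate 2, also had the highest macrophage, Schwann cell, endothelial and pericyte marker levels. The part of those cells was not tested. The 6 h call was kept under all 27 alternatives, with adjusted p-values of 0.000748 to 0.0254. The summed level of 7 endothelial markers also differed at 6 h, 7.10 to 11.6 CPM against 37.0 to 40.5 CPM at 0 h. At 0 and 6 h most of that sum was Tek (5.93 to 40.9 CPM over the 20 libraries). Pecam1, Emcn, Tie1 and Cldn5 were at 0 in 4, 10, 15 and 16 libraries, and Pecam1 and Cdh5 reached 7.75 and 9.51 CPM at most. The part of endothelial cells in the 6 h results was not tested.

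Bid, which caspase-8 cleaves to link death receptors to mitochondria, varied least of the BH3-only genes in its mean level. Its mean levels were 33.1 ± 2.86, 31.9 ± 1.65, 28.2 ± 3.64, 31.8 ± 1.86 and 34.7 ± 1.39 CPM at 0, 1, 2, 6 and 24 h. A fall was called at 2 h (−0.23 ± 0.083, adjusted p = 0.0283), where the libraries had 26.3, 25.2, 28.0 and 33.4 CPM against 31.6, 34.9, 36.1 and 29.9 CPM at 0 h. At 2 h, 3 libraries were below all of those at 0 h and replicate 4 was among them. With no count filter (adjusted p = 0.0532) or only the 8 libraries of both times in the fit (0.117) the call was lost. It was lost as well on leaving out 0 h replicate 2 (0.0761) or 3 (0.0968), or 2 h replicate 1 (0.0836) or 2 (0.114). Without 2 h replicates 1 and 2 the value was −0.11 (adjusted p = 0.398). Without 2 h replicate 4, a fall at 2 h against 1 h (−0.26, adjusted p = 0.0145) and a rise at 6 h against 2 h (0.27, 0.00626) were called. Bid shares 17.7% of its exonic bases with Bcl2l13 on the opposite strand, whose reads cannot be told apart without strand. Bcl2l13 was called at no time against 0 h.

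**Figure D2:**
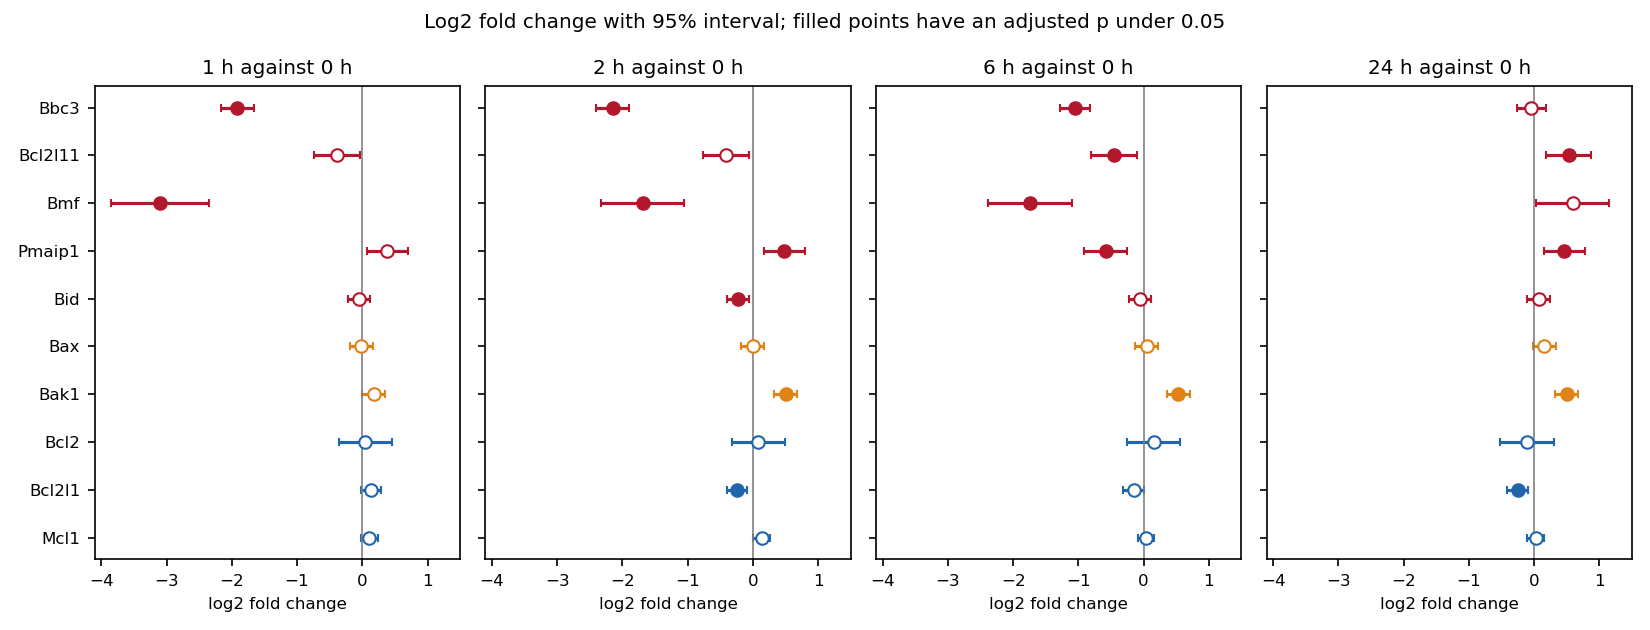
Log2 fold change with its 95% interval (x axis) for each of the 10 members (y axis, grouped by role) at 1, 2, 6 and 24 h against 0 h, with filled points for an adjusted p under 0.05. Bmf at −3.10 and Bbc3 at −1.92 stand far left at 1 h, Bak1 lies near 0.50 at 2, 6 and 24 h, and the intervals of Bax, Bcl2 and Mcl1 stay within −0.52 to 0.56.

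Of the effectors, Bak1 rose and Bax did not pass the test. Bak1 encodes BAK, which sits in the outer membrane, and it lies on chromosome 17, bases 27019810 to 27029009, minus strand (ENSMUSG00000057789). It had 39.5, 34.9, 36.6 and 38.7 CPM at 0 h, 41.8, 45.8, 42.3 and 39.1 CPM at 1 h, and 47.5, 48.3, 58.6 and 58.2 CPM at 2 h. At 6 h it had 51.5, 51.7, 60.0 and 53.0 CPM, and at 24 h 45.3, 50.4, 57.8 and 58.2 CPM. Every library at 2, 6 and 24 h was above every 0 h library, where 31.4% of all genes had no overlap at 24 h. The log2 fold change was 0.18 ± 0.086 at 1 h (adjusted p = 0.230), 0.50 ± 0.086 at 2 h (adjusted p = 3.71e-05), 0.53 ± 0.086 at 6 h (adjusted p = 1.43e-05) and 0.50 ± 0.086 at 24 h (adjusted p = 6.08e-05). These are rises of 1.42-fold, 1.44-fold and 1.41-fold at 2, 6 and 24 h. The rise over 1 h was called at 2 h (0.33 ± 0.086, adjusted p = 0.00886). The calls of Bak1 at 2, 6 and 24 h were kept under all 27 alternatives, and without 2 h replicates 1 and 2 the 2 h value was 0.64 (adjusted p = 3.29e-06). Bak1 shares 18.2% of its exonic bases with Ggnbp1 on the opposite strand, and 7.35% with another gene model of that name. Reads of these stretches cannot be told apart without strand, and their part in the rise of Bak1 was not tested.

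Bax, whose protein moves from the cytosol to mitochondria when activated, had mean levels of 88.9 ± 4.14, 87.9 ± 6.46, 88.8 ± 17.4, 91.9 ± 1.96 and 99.3 ± 3.36 CPM at 0, 1, 2, 6 and 24 h. Its 4 libraries at 24 h, 95.6 to 103 CPM, were above the 85.6 to 94.98 CPM of 0 h, with a log2 fold change of 0.16 that did not pass the test (95% interval −0.02 to 0.33, adjusted p = 0.186). At 2 h, replicate 4 stood at 115 CPM and the others at 76.3 to 82.7 CPM. Without that library Bax was called lower at 2 h (−0.15, adjusted p = 0.0304), higher at 24 h (0.16, 0.0167) and higher at 6 h against 2 h (0.20, 0.00635). With only the 8 libraries of both times in the fit it was called higher at 24 h against 0 h (0.16, adjusted p = 0.0121) and against 6 h (0.11, 0.0389). Bax shares 12.2% of its exonic bases with the gene model Gm45808 on the same strand.

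Among the anti-apoptotic genes, Bcl2l1 was lower at 2 and 24 h, while Mcl1 and Bcl2 were called at no time. Bcl2l1 encodes BCL-xL and lies on chromosome 2, bases 152780668 to 152831728, minus strand (ENSMUSG00000007659). It had 77.2, 75.6, 70.8 and 73.3 CPM at 0 h, 87.2, 89.9, 82.8 and 66.0 CPM at 1 h, and 57.5, 62.1, 65.9 and 65.1 CPM at 2 h. At 6 h it had 64.6, 65.7, 66.8 and 70.1 CPM, and at 24 h 57.9, 59.9, 64.1 and 66.9 CPM. At 1 h, 3 libraries were above all 0 h libraries and replicate 4 was below them. At 2, 6 and 24 h every library was below every 0 h library. The log2 fold change was 0.14 ± 0.076 at 1 h (adjusted p = 0.307), −0.25 ± 0.076 at 2 h (adjusted p = 0.0121), −0.15 ± 0.076 at 6 h (adjusted p = 0.115) and −0.25 ± 0.076 at 24 h (adjusted p = 0.0139). The largest step was between 1 and 2 h, a fall to 76.8% of the 1 h level (−0.38 ± 0.076, adjusted p = 8.96e-04).

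Some calls of Bcl2l1 turned on which libraries were in the fit. Without 1 h replicate 4 a rise was called at 1 h (0.22, adjusted p = 0.0318). That library had the highest macrophage marker sum at 1 h, 196 CPM, and the part of those cells was not tested. Leaving out 2 h replicates 1 and 2 ended the 2 h call (−0.18, adjusted p = 0.113), and leaving out 24 h replicate 1 ended the 24 h call (−0.22, 0.0526). With only the 8 libraries of 6 and 0 h in the fit, the fall at 6 h was called (−0.15, adjusted p = 0.0178). The fall between 1 and 2 h was kept under all 27 alternatives, with adjusted p-values of 2.41e-05 to 0.0415.

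Mcl1, a short-lived guardian that many cells need to survive, did not pass the test at any time. It had 159, 161, 162 and 164 CPM at 0 h, 175, 173, 167 and 181 CPM at 1 h, 174, 204, 156 and 174 CPM at 2 h, 159, 163, 172 and 169 CPM at 6 h, and 172, 165, 159 and 160 CPM at 24 h. All 1 h libraries were above all 0 h libraries, and the later times overlapped 0 h. The 95% intervals of its log2 fold change were −0.02 to 0.23 at 1 h, 0.01 to 0.26 at 2 h, −0.09 to 0.17 at 6 h and −0.11 to 0.15 at 24 h (adjusted p = 0.330, 0.0928, 0.669 and 0.844). The bound farthest from 0 was the upper one at 2 h, 0.26. Without 2 h replicate 3 a rise was called at 2 h (0.19, adjusted p = 0.0153), and without replicates 1 and 2 the value was 0.03 (0.767).

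Bcl2, the founding member, was a low transcript in these cells, with 42 to 111 reads per library. Its mean levels were 3.55 ± 0.14, 3.68 ± 0.69, 3.75 ± 1.23, 3.97 ± 0.56 and 3.30 ± 0.52 CPM at 0, 1, 2, 6 and 24 h. The 95% intervals of its log2 fold change were −0.36 to 0.46 at 1 h, −0.32 to 0.49 at 2 h, −0.25 to 0.56 at 6 h and −0.52 to 0.31 at 24 h. At 2 h, replicate 2 had 5.58 CPM and the others 2.98 to 3.22 CPM. Bcl2 shares 6.09% of its exonic bases with the gene model D630008O14Rik on the opposite strand.

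Levels of different members were compared per length, as reads per kilobase of exon, on the CPM scale (RPKM, union exon length in GENCODE M21). At 0 h the order was Bax (56.4 ± 2.63 RPKM), Mcl1 (47.2 ± 0.64), Bcl2l1 (16.2 ± 0.61), Bak1 (15.5 ± 0.87), Bid (9.33 ± 0.81), Bbc3 (8.04 ± 0.78), Pmaip1 (3.18 ± 0.47), Bcl2l11 (1.11 ± 0.20), Bmf (0.395 ± 0.134) and Bcl2 (0.388 ± 0.016). Libraries of neighbours overlapped for Bcl2l1 and Bak1, Bid and Bbc3, and Bmf and Bcl2, and were separate for the other neighbours. From 2 h on, Bak1 was above Bcl2l1 in every library, at 22.1 and 13.7 RPKM at 2 h, 22.5 and 14.6 RPKM at 6 h, and 22.0 and 13.6 RPKM at 24 h. Bbc3 was below Pmaip1 at 1 h (2.13 and 4.15 RPKM) and 2 h (1.82 and 4.43 RPKM), and above it again at 6 h (3.88 and 2.11 RPKM) and 24 h (7.82 and 4.38 RPKM). The 5 BH3-only genes summed to 22.1 ± 0.91, 16.2 ± 0.76, 15.2 ± 0.56, 15.9 ± 1.10 and 24.2 ± 0.90 RPKM at 0, 1, 2, 6 and 24 h. Mcl1 made up 74.0%, 73.7%, 78.5%, 76.4% and 77.5% of the sum of Mcl1, Bcl2l1 and Bcl2 at 0, 1, 2, 6 and 24 h. Bcl2l2, another anti-apoptotic gene, is not in that sum. Before length scaling it had 64.8 CPM at 0 h, beside 74.2 CPM for Bcl2l1, so these are not shares of all anti-apoptotic transcripts.

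**Figure D3:**
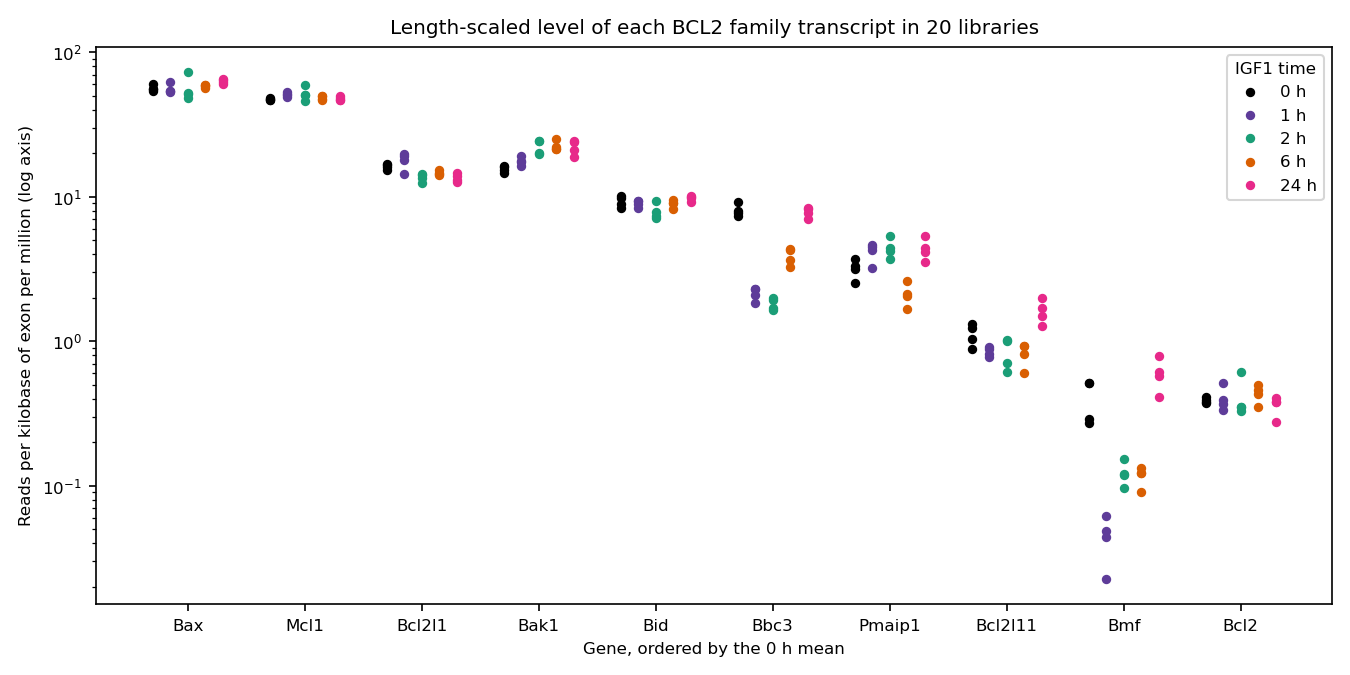
RPKM on a log axis (y) for each member (x, ordered by the 0 h mean), with 1 point per library coloured by IGF1 time. Bax and Mcl1 lead in all 20 libraries, Bak1 moves above Bcl2l1 from 2 h, and Bmf spans from 0.0226 RPKM at 1 h to 0.786 RPKM at 24 h.

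Ratios of raw counts within a library do not depend on library scaling. In order of time from 0 to 24 h, Bbc3 over Mcl1 was 0.106 ± 0.012, 0.0261 ± 0.0030, 0.0219 ± 0.0028, 0.0498 ± 0.0071 and 0.101 ± 0.0067 at the 5 times. Bak1 over Bcl2l1 was 0.505 ± 0.029, 0.523 ± 0.049, 0.847 ± 0.055, 0.809 ± 0.061 and 0.849 ± 0.050 at the 5 times. The first ratio dipped and returned, whereas the second stepped up between 1 and 2 h and stayed up. Pmaip1 over Mcl1 was lowest at 6 h, 0.0350 ± 0.0071 against 0.0537 ± 0.0078 at 0 h, and Bcl2l11 over Mcl1 highest at 24 h, 0.0790 ± 0.0148 against 0.0553 ± 0.0096 at 0 h. These ratios are descriptions without a test.

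**Figure D4:**
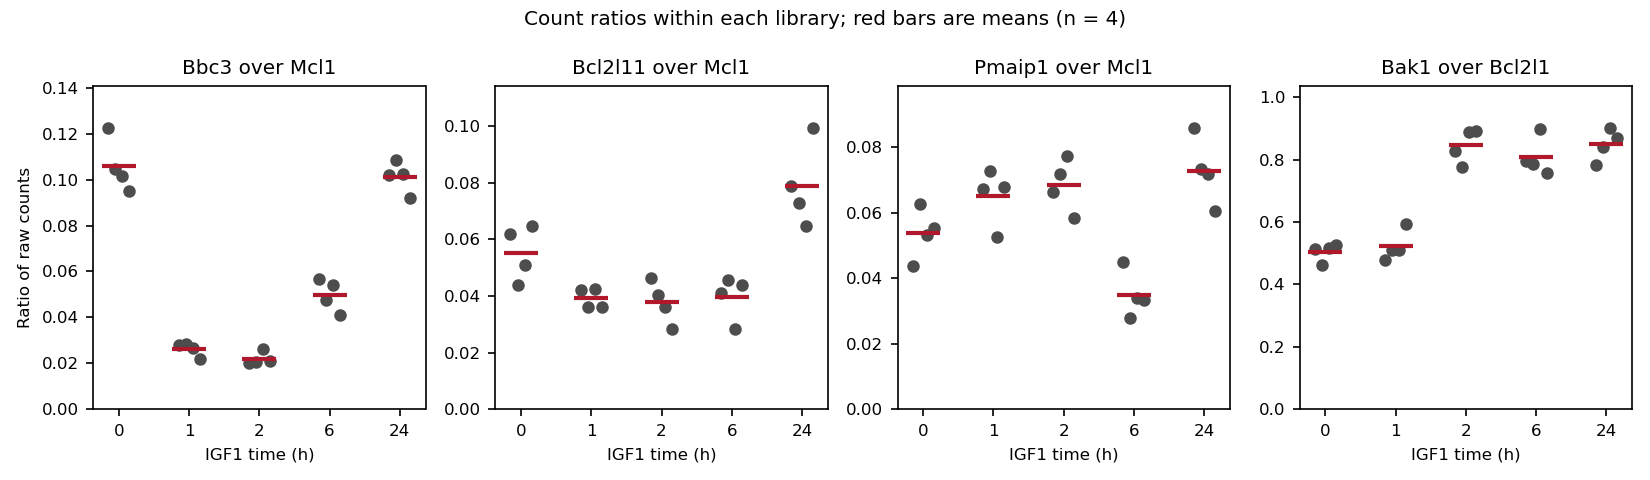
Ratio of raw counts of 2 members within each library (y axis, from 0) against IGF1 time (x axis, evenly spaced times in h); points are libraries and red bars are means (n = 4). Bbc3 over Mcl1 falls to means of 0.0261 and 0.0219 at 1 and 2 h, and Bak1 over Bcl2l1 lies at 0.756 or above in all libraries from 2 h, against at most 0.527 at 0 h.

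Successive times were also compared. At 2 h against 1 h, Bmf and Bak1 were higher and Bcl2l1 was lower, where 16.3% of all genes were called (7.5% higher and 8.84% lower). At 6 h against 2 h, Bbc3 was higher and Pmaip1 was lower, where 27.4% of all genes were called (13.6% higher and 13.7% lower). Without 2 h replicate 4, 2 members were lower at 2 h against 1 h and 3 were higher at 6 h against 2 h. At 24 h against 6 h, Bbc3, Bcl2l11, Bmf and Pmaip1 were higher and 0 members were lower, a share of the 10 close to the 35.8% of all genes called (17.6% higher and 18.2% lower). In those 4 genes all 24 h libraries were above all 6 h libraries, as 41.2% of all genes did not overlap in either direction. Bid was the only BH3-only gene not called in that step (0.12, 95% interval −0.05 to 0.30).

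Across the 20 libraries, log2 CPM of Bbc3 and Bmf had a Pearson correlation of 0.84, Bcl2l11 and Bmf 0.70 and Bbc3 and Bcl2l11 0.65, while Pmaip1 had −0.17 with Bbc3. The libraries share 5 times and these values are descriptions. Among 10057 genes with a mean of at least 5 CPM, those most like Bbc3 were Ccng2 (0.97), Cdkn1b (0.96) and Trp53inp1 (0.95). Those most like Bmf were Ubb (0.90), Zfp30 (0.89) and Zfp113 (0.86), and Zfp113 (0.85) was also high for Bcl2l11, after Dnajc18 (0.86) and Acox3 (0.85). Pmaip1 was most like Cyp1b1 (0.88), Insig1 (0.87) and Rdh11 (0.83), and Bak1 was most like Atp5k (0.90), Uqcc2 (0.90) and Ddit4 (0.89). The genes most like Bid were Osbpl2 (0.87), Sars (0.86) and Atp6ap1 (0.83), those most like Bax Aamdc (0.87), Commd3 (0.85) and Saraf (0.85), and those most like Bcl2 Tmx4 (0.70), Msn (0.69) and Rgmb (0.69). For Bcl2l1 these were Zfp57 (0.84), Amotl2 (0.84) and Phf13 (0.82), and for Mcl1 Atp6v1c1 (0.88), Sdcbp (0.88) and Cbfb (0.87).

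Other BCL2 family genes were called from 2 h on. Of 15, 7 had enough reads to be tested, and 8 did not, among them Bik, Hrk and Bcl2a1b with at most 9, 3 and 31 reads in a library. Of those tested, 0 were called at 1 h, 1 was higher and 1 lower at 2 h and again at 6 h, and 3 were lower at 24 h. Of all tested genes, 6.75%, 20.2%, 20.6% and 12.7% were called higher and 3.88%, 17.5%, 19.6% and 13.2% lower at 1, 2, 6 and 24 h, and the counts of this list and of the gene lists that follow stand beside those shares. Bnip3, a BH3-like mitophagy receptor induced by hypoxia, rose at 2 h (0.33 ± 0.10) and 6 h (1.46 ± 0.10, adjusted p = 9.25e-12), with 103 CPM at 6 h against 37.55 CPM at 0 h, and was lower at 24 h (−0.52 ± 0.10, adjusted p = 3.81e-04). Bok, a BAX-like effector, fell at 6 h (−0.72 ± 0.15, adjusted p = 3.91e-04) and 24 h (−0.99 ± 0.16, adjusted p = 2.07e-05). Bcl2l2, which encodes anti-apoptotic BCL-w, was lower at 2 h (−0.27 ± 0.060, adjusted p = 7.85e-04), and Bnip3l was lower at 24 h (−0.30 ± 0.074, adjusted p = 0.00288).

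Among genes of the apoptosome and caspases, 9 were tested. At 1, 2, 6 and 24 h, 0, 2, 2 and 3 were higher and 1, 2, 4 and 0 were lower. Casp2, an initiator caspase, was lower at 1 h (−0.90 ± 0.13, adjusted p = 1.92e-05), 2 h (−1.13 ± 0.13, adjusted p = 1.93e-07) and 6 h (−0.72 ± 0.13, adjusted p = 7.30e-05). Apaf1, the apoptosome scaffold, fell at 2 h (−0.79 ± 0.081, adjusted p = 1.63e-08). Cycs, cytochrome c, rose at 2 h (0.71 ± 0.12), 6 h (1.02 ± 0.11, adjusted p = 5.08e-08) and 24 h (0.34 ± 0.12, adjusted p = 0.0335). Casp12 was lower at 6 h (−0.94 ± 0.088, adjusted p = 2.04e-09). Of 7 inhibitors of apoptosis and their antagonists, 0, 0, 0 and 1 were higher and 2, 3, 2 and 2 lower at the 4 times. Xiap, a caspase inhibitor, was lower at each of them, most at 2 h (−0.73 ± 0.089, adjusted p = 2.66e-07), and Birc5 (survivin), which also serves in mitosis, was higher at 24 h (2.32 ± 0.18, adjusted p = 1.30e-10).

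Among 8 death receptors and adaptors, 2, 3, 2 and 1 were higher and 0, 1, 1 and 1 lower at 1, 2, 6 and 24 h. Fas fell at 2 h (−1.14 ± 0.12, adjusted p = 4.05e-08) and 6 h (−0.85 ± 0.12, adjusted p = 2.37e-06), whereas Tnfrsf10b, the mouse TRAIL receptor, was higher at all 4 times (0.45 to 0.48). Tnfrsf12a was higher at 1 h (0.61 ± 0.081), 2 h (0.98 ± 0.081, adjusted p = 2.82e-10) and 6 h (0.64 ± 0.081). It was lower at 24 h (−0.52 ± 0.082, adjusted p = 1.95e-05). Of 8 mitochondrial partners, 5 were higher at 6 h, where 20.6% of all genes were and the list's median was 0.34, and 0 were lower at any of the 4 times, with Aifm1 at 0.71 ± 0.069 and the outer membrane channel Vdac1 at 0.58 ± 0.056 at 6 h. Of 15 tested regulators of BCL2 family genes and proteins, 3, 3, 6 and 8 were higher and 3, 3, 3 and 2 lower at the 4 times. Foxo3 was lower at 1 h (−0.27 ± 0.075, adjusted p = 0.0144) and 2 h (−0.30 ± 0.074, adjusted p = 0.00239) and higher at 6 h (0.34 ± 0.074) and 24 h (0.55 ± 0.074, adjusted p = 1.405e-06). In contrast, Foxo4 was lower at 2, 6 and 24 h (−0.38, −0.77 and −0.29). Foxo1 was called only at 24 h, where it was higher (0.48), and Trp53 was called at none of the 4 times. Trib3 was lower at 1, 2 and 6 h (−0.84 ± 0.097, −1.02 ± 0.098 and −0.32 ± 0.096). Jun was higher at 1 h (0.68 ± 0.071), 2 h (1.08 ± 0.071, adjusted p = 2.465e-12) and 6 h (0.69 ± 0.071).

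In the authors' deposited table of edgeR results, which holds 12207 genes, all 70 values of the members over the 7 comparisons had the same call as here. The largest difference between log2 fold changes in the authors' deposited table and those computed here was 0.0148.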

How the data were processed

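The authors deposited raw read counts per gene for 20 libraries, whole numbers with a different sum in each library, per the file headers. Per the submitters' processing notes, FastQC, STAR, edgeR and the mm10 build were used, without versions. Which program counted reads, with which annotation and strand setting, is not given in the sources used here. A second table deposited by the authors gives log2 fold changes, p-values and adjusted p-values from edgeR for each comparison, per the file headers, and served only to compare calls.

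The deposited counts entered edgeR 4.0.16 (R 4.3.3) unchanged. Filtering with filterByExpr over the 5 times kept 14420 of 29986 genes with 99.9% of the counts. TMM scaling, robust dispersion and 1 quasi-likelihood fit of all 20 libraries without covariates followed, so the times share 1 estimate of the spread. Tests were two-sided with Benjamini-Hochberg adjustment over all tested genes and a threshold of 0.05. The SE is the size of the log2 fold change divided by the square root of F. The fit was tested on simulated data.

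Groups and replicate numbers came from the labels. The description label of 0 h replicate 2 repeats that of replicate 1; the chi-square of their counts over its degrees of freedom was 9.12, where replicate pairs ranged over 2.92 to 55.6, so each was counted as 1 library.

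All 10 members are named with values, called or not. Per member, the 3 named genes with the highest correlation of log2 CPM were given (prior count 2, mean of at least 5 CPM). From each list of other BCL2 family genes, apoptosis genes and regulators, genes were named from the 4 called genes of the smallest any-time p. Not all of these were described: Birc2, Htra2, Tnfrsf1a, Vdac2, Dnm1l and Myc were passed over. Foxo1, Foxo4 and Trp53 were named in addition to the rule for lists. Members, lists and tests were chosen with earlier results of these data known. Alternatives were DESeq2 1.42.0, RLE scaling, no count filter, a filter at 1 CPM in 4 libraries, a replicate block, fits of 8 libraries and leaving out each library. Leaving out 2 h replicates 1 and 2 was added after seeing the data.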

Additional observations from a re-analysis of the deposited data

Results flagged for a closer look

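In 50 groups of 4 libraries (10 members at 5 times), 3 held a library whose gap to the nearest of the others, as a share of the group's range, exceeded Dixon's 95% critical value, and chance flags about 1 in 20 such groups. Bax had 114.57 CPM in 2 h replicate 4, with the others at 76.3 to 82.7 CPM, and without that library its fold change at 2 h was called. Bcl2 had 5.58 CPM in 2 h replicate 2, with the others at 2.98 to 3.22 CPM. That library also had the highest macrophage marker level, 456 CPM, and the highest Schwann cell, endothelial and pericyte marker levels. The part of those cells was not tested. Bak1 had 59.96 CPM in 6 h replicate 3, with the others at 51.5 to 53.0 CPM, all above the 0 h libraries.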

How the results depend on the processing

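Under 27 settings, 1889 log2 fold changes of the members were recomputed. Of these, 1850 kept their direction and side of the threshold, or stayed uncalled, 24 lost a call and 15 gained one. No called value changed sign, while 44 uncalled ones did. In fits of only the 8 libraries compared, 1 member was higher at 2 h against 1 h, where Bmf had too few reads to be tested, and 776 genes were called. In such fits 2569 genes were called at 6 h against 2 h and 3646 at 2 h against 0 h, fewer than with all libraries, while 2068, 6947 and 4938 were called at 1, 6 and 24 h against 0 h and 6667 at 24 h against 6 h, more than with all libraries. The cause was not tested. Without 2 h replicates 1 and 2, 1 member was higher at 2 h, Bak1.

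Leaving out 1 library at a time, the number of members higher ranged over 0 to 1 at 1 h, 1 to 3 at 2 h, 1 to 1 at 6 h and 1 to 4 at 24 h, and the number lower over 2 to 2, 3 to 5, 3 to 4 and 0 to 1. For the steps the members higher were 1 to 2 at 2 h against 1 h, 1 to 3 at 6 h against 2 h and 4 to 4 at 24 h against 6 h, and the members lower 1 to 2, 1 to 1 and 0 to 0. Over all times 6 to 8 members were called. The genes called were 1158 to 2156 at 1 h, 4828 to 5698 at 2 h, 5117 to 6634 at 6 h and 3118 to 4670 at 24 h, then 1607 to 2739, 3157 to 4555 and 4421 to 6037 in the 3 steps, and 8733 to 10080 over all times.

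With the replicate number as a block, the members called were the same in number in every comparison (2 lower at 1 h, 2 higher and 4 lower at 2 h, 7 over all times) and 1518, 5361, 5752 and 3677 genes were called at 1, 2, 6 and 24 h. The labels do not say whether the numbers pair the libraries. In the counts, 1 of 40 same-number pairs had a correlation of deviations over 0.1 (range −0.17 to 0.13), and 2 of 20 libraries were closest to their own number. Weak correlations of this kind show no sign of pairing but cannot exclude a shared mouse or culture.

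Depth limits Bmf most, with 2 to 7 reads per library at 1 h, and Bcl2, with 42 to 111.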
